A study of Mus musculus with 3 samples.

Results

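Genes encoding 9 transcription factors that direct osteoblast and chondrocyte differentiation, *Runx1*, *Runx2*, *Runx3*, *Sp7*, *Dlx3*, *Dlx5*, *Sox5*, *Sox6* and *Sox9*, were followed by droplet single-cell RNA-sequencing (scRNA-seq) in the growing long bone of the mouse. They were chosen by symbol from the 28808 genes with a UMI in a kept cell, and all 9 passed the filter on low counts. The data come from 3 libraries of untreated C57BL/6 mice at 3 weeks of age (C57BL/6J in the study's methods for the metaphyseal libraries). Metaphyseal replicates 1 and 2 hold cells of the dissected metaphysis after depletion of haematopoietic lineage, CD45+ and CD117+ cells. The *Pdgfra-GFP* library holds GFP+ cells sorted by flow cytometry from the metaphysis and epiphysis of femur and tibia of male mice with 1 *Pdgfra-H2B-GFP* allele, in which the *Pdgfra* locus drives a nuclear GFP. Libraries are the replicates here. The sources used here do not say how many animals each holds, so the spread between animals is not known. The p-values measure how populations vary from library to library after shifts shared by a whole library are removed. This spread was estimated over all 14 gated populations together.

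RUNX2 and SP7 (osterix) are required for osteoblast differentiation, with SP7 acting downstream of RUNX2, and the homeodomain proteins DLX3 and DLX5 act on the same lineage. SOX9 is required for cartilage formation and, together with SOX5 and SOX6, drives the collagen and proteoglycan genes of the growth plate. RUNX1 and RUNX3 share the DNA-binding domain of RUNX2. RUNX1 is also known for its role in blood stem cells, and RUNX2 and RUNX3 together promote the maturation of chondrocytes. Septoclasts (SCs) are mononuclear cells that resorb cartilage where the growth plate meets the metaphysis. The comparisons ask where SCs and metaphyseal mesenchymal stromal cells (mpMSCs) stand between the osteoblast and chondrocyte ends in the levels of these genes.

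RUNX proteins bind a short DNA motif, and the start regions of the *Runx* genes are shown because they differ in whether they hold it. The heptamer AACCACA was searched on both strands in the 250 bases before each start site listed by RefSeq (GRCm38.p6). It was found in 1444 of 32851 windows (4.40%). The table had 12 windows for 5 of the 9 members (*Runx1*, *Runx2*, *Runx3*, *Sox5* and *Sox6*), and 2 of these windows held the motif, shown in capitals in the strand of the gene. In *Runx2* (chromosome 17, minus strand) it begins 81 bases before the start of the distal promoter, and in *Runx3* (chromosome 4, plus strand) 2 copies begin 135 and 127 bases before the start of the upstream promoter.
Runx2, chr17:44814628-44814877: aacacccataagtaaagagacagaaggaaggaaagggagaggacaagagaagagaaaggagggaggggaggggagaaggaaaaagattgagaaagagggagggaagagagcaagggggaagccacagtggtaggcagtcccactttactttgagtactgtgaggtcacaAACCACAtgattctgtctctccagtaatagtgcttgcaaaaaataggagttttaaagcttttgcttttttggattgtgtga
Runx3, chr4:135120395-135120644: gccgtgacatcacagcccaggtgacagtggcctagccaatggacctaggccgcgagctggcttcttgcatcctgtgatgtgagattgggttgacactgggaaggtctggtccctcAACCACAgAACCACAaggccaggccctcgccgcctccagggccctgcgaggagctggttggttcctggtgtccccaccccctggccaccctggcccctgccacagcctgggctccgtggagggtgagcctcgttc
Neither of the 2 *Runx1* windows held these letters. The counts come from the 3′ ends of transcripts and do not tell start sites apart, so the levels below are those of whole genes.

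Cells were assigned to populations by marker gates that use none of the 9 genes, and named with the suffix "-like". SC-like cells (gate *Sstr2*, *Cd55* and *Otos*) numbered 15 and 13 in the metaphyseal replicates and 180 among the sorted *Pdgfra-GFP* cells (the order used throughout), and mpMSC-like cells (*Postn*, *Wif1* and *Kcnk2*) 29, 27 and 926. Diaphyseal stromal (dpMSC-like) cells with *Lepr*, *Adipoq* and *Cxcl12* numbered 699, 648 and 4008. Osteoblast-like (OB-like) cells with *Bglap*, *Bglap2* and *Col22a1* numbered 43, 57 and 1124, and growth plate chondrocyte-like cells with *Acan*, *Col9a1* and *Matn3* numbered 29, 29 and 1288. Markers outside the gates mostly followed the names: *Mmp9*, a matrix protease, stood at 3703, 5395 and 12014 CPM (counts scaled to a common total per sum) in SC-like cells, and the chondrocyte gene *Snorc* at 7994, 8286 and 9316 CPM in chondrocyte-like cells. The septoclast marker *Fabp5* was at 276, 1449 and 2323 CPM in SC-like cells, against medians of 71.9, 41.8 and 50.8 over the other populations. *Cotl1* separated them less, at 156, 197 and 318 CPM against medians of 118, 46.3 and 34.0. In mpMSC-like cells *Aspn* (403, 131 and 422 CPM) and *Pdgfrb* (332, 245 and 238 CPM) were raised. *Tnn* was low (44.8, 24.5 and 27.3 CPM), though above its medians over the other populations (0, 0 and 3.89 CPM). Only 20.7, 18.5 and 28.7% of these cells had *Aspn* and 13.8, 3.70 and 10.8% *Tnn*, so this gate is less sharply marked. Cells gated by *Dmp1* and *Mepe* numbered 10, 10 and 39. They had no UMI of the osteocyte genes *Sost* and *Fgf23* in the metaphyseal libraries and are called *Dmp1*/*Mepe*-gated cells.

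The libraries held 25243314, 22082735 and 91747759 unique molecular identifiers (UMIs, each counting 1 captured RNA molecule), and 2382, 2004 and 11242 cells were kept. Although the metaphyseal libraries are labelled as mesenchymal stromal cells, 1127 and 889 of their cells were endothelial-like (EC-like). The SC-like sums of the metaphyseal libraries rest on 15 and 13 cells. Markers of dpMSC, OB, chondrocyte and macrophage cells were low in the SC-like sums, while those of mpMSCs were not summed there. The 7 dpMSC markers summed to 7.09, 2.05 and 3.42% of their level in dpMSC-like cells. The 6 OB markers summed to 0.574, 0.519 and 0.669% of that in OB-like cells, and the 6 chondrocyte markers to 0.421, 0.226 and 0.882% of that in chondrocyte-like cells. All 6 macrophage markers were at 0 in the metaphyseal SC-like cells and summed to 1.01% of the macrophage-like level in the *Pdgfra-GFP* library. In mpMSC-like sums the dpMSC markers reached 10.0, 8.66 and 9.74% and the OB markers 1.85, 4.74 and 1.87% of their own level. The part of these cells in the results was not tested.

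UMIs were summed per library and population and tested with edgeR's quasi-likelihood test over 11976 genes, with the library as a block and Benjamini-Hochberg adjustment. Levels are given as CPM scaled by TMM factors, in the order metaphyseal replicate 1, metaphyseal replicate 2 and *Pdgfra-GFP* library, and differences as log2 fold changes with their standard error (SE). The scaling matters where osteoblasts are compared. The type I collagen genes *Col1a1* and *Col1a2* averaged 212426 and 145604 scaled CPM in OB-like cells, and the TMM factors were 0.652, 0.663 and 0.531 in OB-like sums against 1.31, 1.38 and 1.13 in SC-like sums. With library totals in place of TMM, an alternative chosen after seeing the data, the median difference of all genes went from −0.01 to 1.02 for SC-like against OB-like cells, from 0.05 to 1.07 for mpMSC-like against OB-like cells, from −0.03 to 0.43 and from 0.01 to 0.47 for SC-like and mpMSC-like against chondrocyte-like cells, and from 0.02 to −0.54 for OB-like against chondrocyte-like cells. The calls of SC-like against OB-like cells went from 1743 higher and 1704 lower to 6503 and 538, and those of mpMSC-like against OB-like cells from 1982 and 1852 to 7574 and 533. Against chondrocyte-like cells they went from 1742 and 1833 to 3232 and 974 for SC-like, from 2122 and 2142 to 4170 and 1207 for mpMSC-like and from 2020 and 2149 to 919 and 4715 for OB-like cells. Among the members this turned the sign of *Runx2*, *Dlx5* and *Sox9* in SC-like against OB-like cells and of *Runx2* and *Sox6* in mpMSC-like against OB-like cells. Differences are therefore read relative to the median of all genes, which TMM holds near 0.

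The ends of the scale were far apart. All 9 genes differed between OB-like and chondrocyte-like cells, where 34.8% of all genes tested did. *Runx1*, *Runx2*, *Sp7*, *Dlx3* and *Dlx5* were higher in OB-like cells (16.9% of all genes were), and *Runx3*, *Sox5*, *Sox6* and *Sox9* were lower (17.9% of all genes). Of the RUNX family, *Runx3* thus lay on the chondrocyte side. With library totals in place of TMM the directions were the same and *Dlx5* was no longer past the threshold (log2 fold change 0.59, edgeR adjusted p = 0.0616). Of 10 cartilage matrix genes bound by SOX9, 8 were lower in OB-like cells, but *Col11a1* and *Col11a2*, fibril collagens, were not past the threshold (log2 fold changes −0.08 and 0.13).

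**Figure D1:**
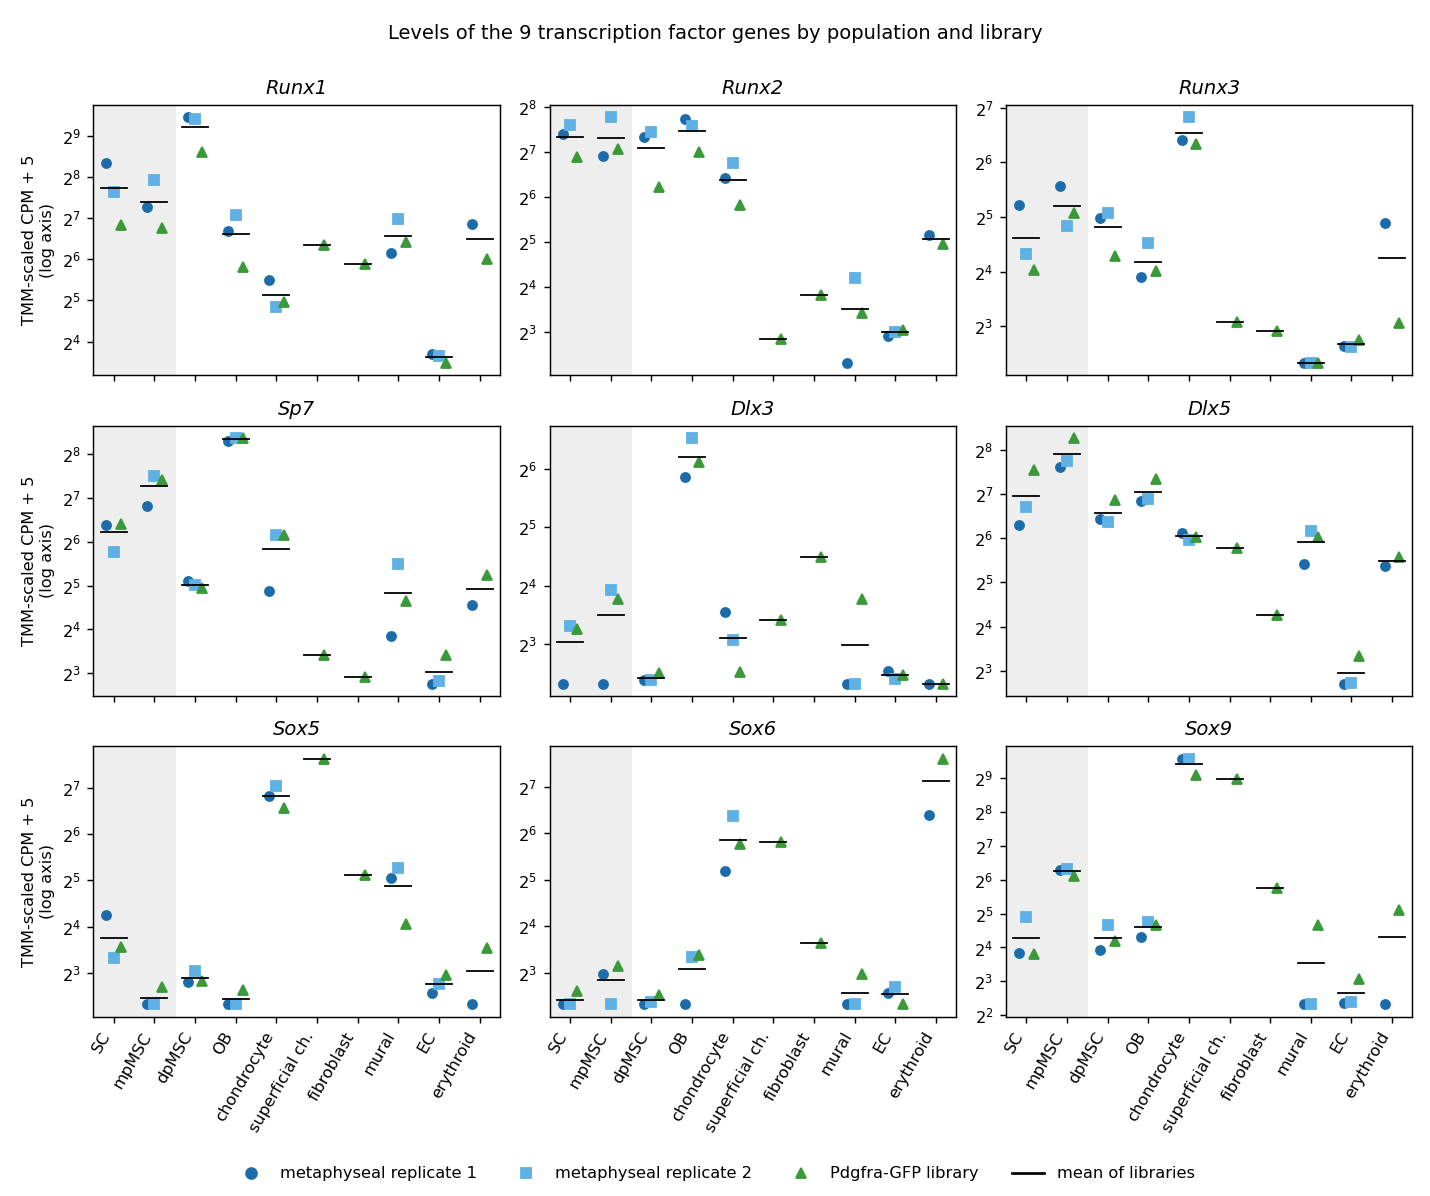
Levels of the 9 genes (TMM-scaled CPM plus 5, log axis) by population, with a point for each library and a line at their mean. *Dmp1*/*Mepe*-gated, neutrophil-like, B-lineage-like and macrophage-like cells are not drawn. Among the populations drawn, *Sp7* and *Dlx3* stand highest in OB-like cells and *Sox9* in chondrocyte-like cells. *Runx2* is at like levels in OB-like, mpMSC-like and SC-like cells, with an overlapping range in dpMSC-like cells. The shaded columns are the SC-like and mpMSC-like cells.

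*Runx2*, the master gene of the osteoblast lineage, was at 162, 189 and 114 scaled CPM in SC-like cells, at 116, 213 and 129 in mpMSC-like cells and at 206, 185 and 124 in OB-like cells. The ranges of the 3 populations overlap. Those of dpMSC-like (69.2 to 168) and *Dmp1*/*Mepe*-gated cells (107 to 154) overlap them too, so such levels are not particular to the 3. The differences were −0.14 (SE 0.24, edgeR adjusted p = 0.728) for SC-like against OB-like cells and −0.12 (SE 0.23, edgeR adjusted p = 0.756) for mpMSC-like against OB-like cells, with 95% intervals from −0.62 to 0.34 and from −0.57 to 0.33. With library totals both turned positive and passed the threshold (0.90 and 0.90), so the direction against OB-like cells rests on the scaling. Chondrocyte-like cells were at 80.5, 104 and 51.2 scaled CPM, and *Runx2* was 2.05-fold higher in SC-like cells (log2 1.03, SE 0.26, edgeR adjusted p = 0.00250) and 2.08-fold higher in mpMSC-like cells (edgeR adjusted p = 0.000917), in 3 of 3 libraries each. Both calls were lost with no replicate block (edgeR adjusted p = 0.0719 and 0.0634). Blood and vessel cells, thought to lack the gene, were read for comparison. The source of their UMIs, such as free RNA, was not tested. EC-like cells were lowest at 2.60, 3.06 and 3.35 scaled CPM, while neutrophil-like cells were at 31.4, 11.7 and 47.0, B-lineage-like cells at 12.3, 4.51 and 19.5 and erythroid-like cells at 30.6 and 26.2 in the 2 libraries that had enough. All OB-like, SC-like and mpMSC-like values lay above these.

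*Sp7*, which acts after *Runx2*, set OB-like, mpMSC-like, SC-like and dpMSC-like cells apart from each other. It was at 309, 326 and 326 scaled CPM in OB-like cells, at 107, 175 and 165 in mpMSC-like cells, at 78.8, 49.7 and 79.5 in SC-like cells and at 29.5, 27.2 and 25.7 in dpMSC-like cells. These 4 ranges do not overlap. That of *Dmp1*/*Mepe*-gated cells (64.1 to 229) overlaps those of mpMSC-like and SC-like cells. The chondrocyte-like range (24.6 to 66.4) overlaps those of SC-like and dpMSC-like cells. The dpMSC-like range lies within those of neutrophil-like (0 to 54.0 scaled CPM) and mural-like cells (9.40 to 40.3). The lowest SC-like value also lies within the neutrophil-like range. EC-like (1.77 to 5.59) and B-lineage-like cells (0 to 7.79) lay below all 4. The low *Sp7* levels, those of dpMSC-like cells above all, are thus not set apart from such cells. *Sp7* was 4.61-fold lower in SC-like than in OB-like cells (log2 −2.20, SE 0.32, edgeR adjusted p = 1.79e-06) and 2.18-fold lower in mpMSC-like than in OB-like cells (log2 −1.12, SE 0.27, edgeR adjusted p = 0.00169). The latter call was lost with library totals (log2 −0.11) and with no replicate block (edgeR adjusted p = 0.0896). *Sp7* was 5.37-fold higher in mpMSC-like than in dpMSC-like cells (edgeR adjusted p = 7.25e-08). The difference between SC-like and mpMSC-like cells (log2 −1.08, SE 0.33) had the same sign in 3 of 3 libraries and missed the threshold (edgeR adjusted p = 0.0529). It passed with DESeq2's size factors (0.0476), no filter on low counts (0.00398), a stricter gate (0.0297) and only these populations in the fit (0.00181). Against chondrocyte-like cells (24.6, 66.2 and 66.4 scaled CPM) SC-like cells did not differ beyond the spread (log2 0.34, 95% interval −0.33 to 1.02, edgeR adjusted p = 0.515).

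*Dlx3*, a homeobox gene of mineralizing osteoblasts, had its highest levels in OB-like and *Dmp1*/*Mepe*-gated cells. They were 53.2, 87.2 and 64.3 scaled CPM in OB-like cells and 46.2, 12.8 and 75.0 in *Dmp1*/*Mepe*-gated cells. SC-like cells held 0, 1 and 8 UMIs (0, 4.97 and 4.51 scaled CPM) and mpMSC-like cells 0, 3 and 54 UMIs (0, 10.1 and 8.64 scaled CPM). *Dlx3* was 17.3-fold lower in SC-like (log2 −4.11, SE 0.53, edgeR adjusted p = 3e-07) and 8.91-fold lower in mpMSC-like cells (log2 −3.16, SE 0.38, edgeR adjusted p = 1.14e-07) than in OB-like cells. It was higher in mpMSC-like than in chondrocyte-like cells (log2 2.71, edgeR adjusted p = 0.000618), but this rests on the *Pdgfra-GFP* library, since without it the value was −0.05 (edgeR adjusted p = 1).

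*Dlx5*, an earlier member of the family, had another order. It was highest in mpMSC-like cells at 189, 209 and 304 scaled CPM, against 110, 113 and 157 in OB-like, 74.1, 99.5 and 181 in SC-like and 81.9, 77.3 and 112 in dpMSC-like cells. The mpMSC-like range lies above those of the other 3. The differences from mpMSC-like cells were 1.85-fold for OB-like (edgeR adjusted p = 0.00223), 1.89-fold for SC-like (log2 −0.92, SE 0.24, edgeR adjusted p = 0.0192) and 2.57-fold for dpMSC-like cells (edgeR adjusted p = 8.71e-06), in 3 of 3 libraries each. The OB-like call was lost with no replicate block (edgeR adjusted p = 0.145). The SC-like call was lost without metaphyseal replicate 1 (edgeR adjusted p = 0.204) or 2 (0.0956), with no replicate block (0.483), a looser gate (0.447), sums of at least 20 cells (0.290) and thinning (0.110). Against OB-like cells SC-like cells stood at −0.03 (95% interval −0.50 to 0.45, edgeR adjusted p = 0.966), which became 1.01 with library totals. Against chondrocyte-like cells (64.8, 57.7 and 60.02 scaled CPM) *Dlx5* was 2.19-fold higher in SC-like cells (edgeR adjusted p = 0.00120), with 0.51 on the log2 scale and an edgeR adjusted p of 0.298 without the *Pdgfra-GFP* library. With no replicate block this call was lost too (edgeR adjusted p = 0.101).

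*Runx1* had its highest mean level in dpMSC-like cells, at 691, 674 and 383 scaled CPM, with a range that overlaps that of *Dmp1*/*Mepe*-gated cells (216, 423 and 90.8). It was at 320, 194 and 109 in SC-like cells, at 150, 236 and 102 in mpMSC-like cells, at 98.1, 129.5 and 50.7 in OB-like cells and at 40.2, 23.8 and 26.1 in chondrocyte-like cells. The mpMSC-like level was 3.65-fold below the dpMSC-like level (log2 −1.87, SE 0.27, edgeR adjusted p = 2.29e-06). The SC-like level was 2.22-fold above the OB-like level (log2 1.15, SE 0.28, edgeR adjusted p = 0.00208) and 5.96-fold above the chondrocyte-like level (edgeR adjusted p = 5.71e-08), and SC-like and mpMSC-like cells did not differ beyond the spread (log2 0.31, 95% interval −0.24 to 0.87). Without metaphyseal replicate 1 the SC-like difference from OB-like cells was 0.84 (edgeR adjusted p = 0.108). That call was also lost with no replicate block (edgeR adjusted p = 0.0779) and with a looser gate (0.0613). Blood cells hold *Runx1* too: B-lineage-like cells were at 58.4, 85.7 and 62.3 scaled CPM.

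*Runx3* was highest in chondrocyte-like cells at 80.5, 109 and 76.2 scaled CPM, above every other population with 3 libraries. mpMSC-like cells were at 42.4, 23.6 and 28.8, SC-like cells at 32.4, 14.9 and 11.3 and OB-like cells at 9.98, 18.0 and 11.03. It was 5.46-fold lower in SC-like (log2 −2.45, SE 0.31, edgeR adjusted p = 2.74e-07) and 2.62-fold lower in mpMSC-like (edgeR adjusted p = 2.06e-05) than in chondrocyte-like cells. It was 2.53-fold higher in mpMSC-like than in OB-like cells (log2 1.34, SE 0.28, edgeR adjusted p = 0.000363), a call lost without the *Pdgfra-GFP* library (edgeR adjusted p = 0.0827). SC-like cells rested on 7, 3 and 20 UMIs and differed from OB-like cells by 0.28 (95% interval −0.47 to 1.02), which with library totals became 1.34 and passed the threshold (edgeR adjusted p = 0.00557). Macrophage-like cells, present in the *Pdgfra-GFP* library alone, were at 54.0 scaled CPM.

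*Sox9*, the gene that commits cells to cartilage, was at 751, 742 and 538 scaled CPM in chondrocyte-like cells. mpMSC-like cells were far below at 73.5, 74.2 and 64.01, but their range lay above those of OB-like (14.96, 21.8 and 20.4), dpMSC-like (10.0, 20.3 and 13.1) and SC-like cells (9.27, 24.9 and 9.02). *Sox9* was 9.72-fold lower in mpMSC-like (log2 −3.28, SE 0.36, edgeR adjusted p = 9.5e-09) and 60.1-fold lower in SC-like cells (log2 −5.91, SE 0.51, edgeR adjusted p = 7.92e-11) than in chondrocyte-like cells. It was 3.45-fold higher in mpMSC-like than in OB-like cells (edgeR adjusted p = 0.00121) and 4.85-fold higher than in dpMSC-like cells (edgeR adjusted p = 2.91e-05), calls that DESeq2's Wald test did not make (adjusted p = 0.107 and 0.0782). SC-like cells were 6.18-fold below mpMSC-like cells (log2 −2.63, SE 0.58, edgeR adjusted p = 0.00379), lower in 3 of 3 libraries, a call lost without the *Pdgfra-GFP* library (log2 −2.11, edgeR adjusted p = 0.183), with a stricter gate (0.0804), with no replicate block (0.0954) and by DESeq2's Wald test (0.297). Their sums held 2, 5 and 16 *Sox9* UMIs, and against OB-like cells they stood at −0.84 (95% interval −2.07 to 0.39, edgeR adjusted p = 0.359), which became 0.23 with library totals. Cells that should lack *Sox9* ranged widely, with EC-like cells at 0.12, 0.29 and 3.35 scaled CPM, neutrophil-like cells at 41.9, 0 and 8.70 and erythroid-like cells at 0 and 29.5. The SC-like range lies within that of neutrophil-like cells, and the mpMSC-like range lies above it. Before scaling, SC-like cells were at 12.0, 34.0 and 10.1 CPM against 15.4, 28.8 and 80.4 CPM in near-empty barcodes. mpMSC-like cells before scaling lay above near-empty barcodes in both metaphyseal replicates but below them in the *Pdgfra-GFP* library, which holds most of these cells. Near-empty barcodes show the make-up of RNA free in the suspension and not how much of it a cell carries. The scaled SC-like values lay above the EC-like values of the same library, though within the neutrophil-like range. How much of the SC-like *Sox9* is background was not tested. The 6 chondrocyte markers in mpMSC-like cells summed to 0.210, 0.116 and 1.06% of their chondrocyte-like level.

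*Sox5* and *Sox6*, the partners of *Sox9*, were low in both populations. Chondrocyte-like cells held *Sox5* at 107, 126 and 88.8 scaled CPM and *Sox6* at 31.3, 78.1 and 49.8. In SC-like cells *Sox5* was at 13.9, 4.97 and 6.77 scaled CPM from 3, 1 and 12 UMIs, against 0, 0 and 1.44 in mpMSC-like and 0, 0 and 1.21 in OB-like cells. All SC-like values lay above all those of these 2 populations. *Sox5* was 13.1-fold lower in SC-like than in chondrocyte-like cells (log2 −3.71, SE 0.38, edgeR adjusted p = 3.75e-09), and the fitted difference from mpMSC-like cells was 2.44 (SE 0.68, edgeR adjusted p = 0.0296) and from OB-like cells 2.81 (SE 0.68, edgeR adjusted p = 0.00187). The call against OB-like cells was lost when thinned (edgeR adjusted p = 0.0714). The call against mpMSC-like cells was lost without any 1 of the 3 libraries, and in the *Pdgfra-GFP* library the SC-like level before scaling (7.57 CPM) was below that of near-empty barcodes (13.8 CPM), though above that of EC-like cells (3.16 CPM). *Sox6* gave 0, 0 and 2 UMIs in SC-like cells. Over the 3 libraries this was 2.54% of the chondrocyte-like share of UMIs, with a counting interval from 0.306 to 9.2%. mpMSC-like cells held 1, 0 and 24 UMIs of *Sox6* and were 15.3-fold below chondrocyte-like cells (log2 −3.93, SE 0.39, edgeR adjusted p = 1.42e-09).

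Read against the background of each comparison, the members divided as follows. Between SC-like and OB-like cells, where 28.8% of genes were called, 4 of 9 were: *Runx1* and *Sox5* were higher in SC-like cells (14.6% of genes were), and *Sp7* and *Dlx3* lower (14.2%). Between SC-like and chondrocyte-like cells (29.9% of genes) 7 of 9 were called, *Runx1*, *Runx2* and *Dlx5* higher (14.5% of genes) and *Runx3*, *Sox5*, *Sox6* and *Sox9* lower (15.3%). Between mpMSC-like and OB-like cells (32% of genes) 6 of 9 were called, *Runx1*, *Runx3*, *Dlx5* and *Sox9* higher (16.5% of genes) and *Sp7* and *Dlx3* lower (15.5%). The call of *Runx1* there was lost without any 1 of the 3 libraries (edgeR adjusted p between 0.0507 and 0.0659), and a fit with no replicate block called 3 of the 6. All 9 were called between mpMSC-like and chondrocyte-like cells (35.6% of genes), 5 higher (17.7%) and 4 lower (17.9%) in mpMSC-like cells. Between mpMSC-like and dpMSC-like cells (20.8% of genes) 6 of 9 were called, *Sp7*, *Dlx3*, *Dlx5*, *Sox6* and *Sox9* higher (9.29% of genes) and *Runx1* lower (11.5%). Those of *Dlx3* and *Sox6* were lost without the *Pdgfra-GFP* library (edgeR adjusted p = 0.103 and 0.458). Between SC-like and mpMSC-like cells (5.08% of genes) 3 of 9 were called, with *Sox5* higher (2.8% of genes) and *Dlx5* and *Sox9* lower (2.28%) in SC-like cells. Leaving out either metaphyseal replicate left only the call of *Sox9*, and leaving out the *Pdgfra-GFP* library left only that of *Dlx5*. None of the 3 calls thus held with every library left out in turn. A fit with no replicate block ended all 3 (edgeR adjusted p between 0.0886 and 0.483). The comparisons share populations and are not independent of each other.

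**Figure D2:**
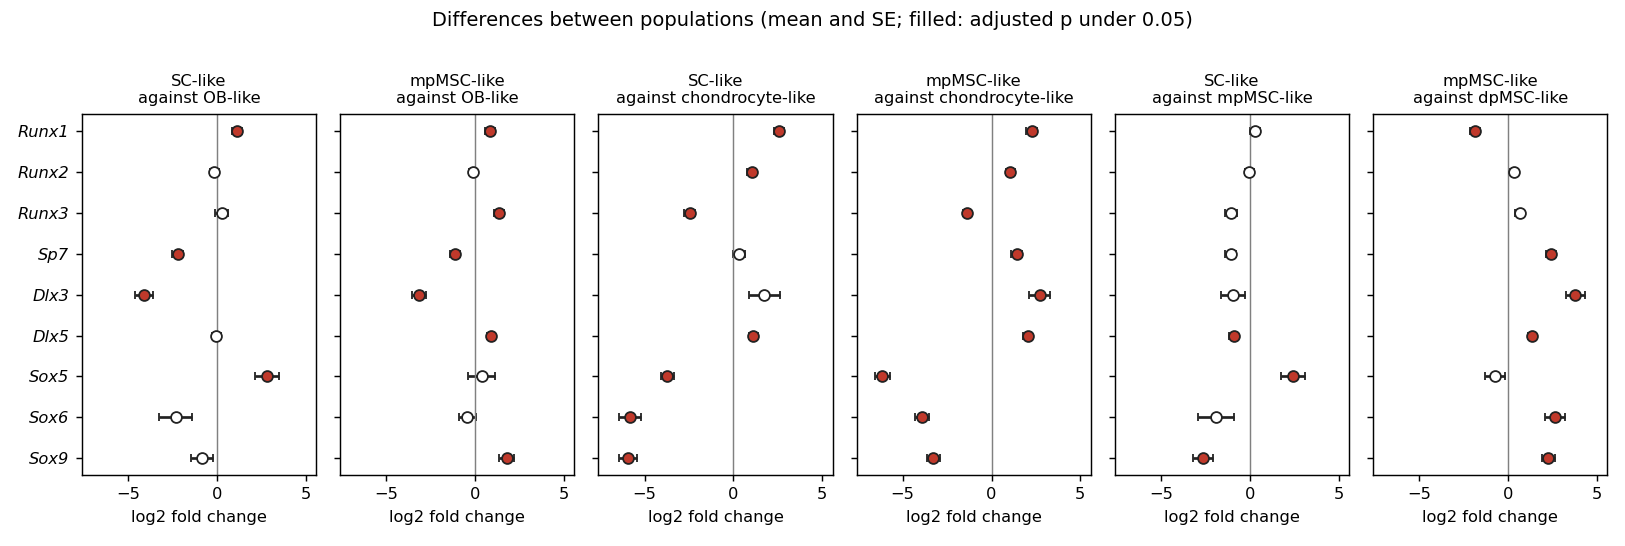
Log2 fold changes of the 9 genes in 6 comparisons, with bars of 1 SE and filled points for an edgeR adjusted p under 0.05. *Sp7* and *Dlx3* lie left of 0 for SC-like and mpMSC-like against OB-like cells, and the 3 *Sox* genes lie left of 0 for both against chondrocyte-like cells.

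A place between the ends was computed for the 6 genes whose OB-like and chondrocyte-like levels were over 2 log2 units apart, with 0 at the chondrocyte-like and 1 at the OB-like level of the same library, on log2 of scaled CPM plus 5. For *Sox9*, SC-like cells were at 1.09, 0.968 and 1.19, at the OB-like level, while mpMSC-like cells were at 0.623, 0.674 and 0.674. For *Sp7*, mpMSC-like cells were at 0.565, 0.606 and 0.567, and SC-like cells at 0.440, −0.171 and 0.110, nearer to the chondrocyte-like level. For *Dlx3* both populations were at or near the chondrocyte-like end in every library, between −0.531 and 0.349. The other 3 lay toward the OB-like end in most libraries. SC-like cells were at 0.474, 1.09 and 0.990 for *Runx3*, at 0.573, 0.788 and 0.765 for *Sox5* and at 1.0, 1.34 and 1.32 for *Sox6*, and mpMSC-like cells at 0.339, 0.862 and 0.540, at 1.0, 1.0 and 0.987 and at 0.774, 1.34 and 1.10. Over all 9 genes, those whose ends lie closer included, 5, 7 and 7 were nearer to the OB-like level in SC-like cells and 6, 8 and 8 in mpMSC-like cells. In dpMSC-like cells the count was 6 in every library, with *Sox9* at 1.08, 1.02 and 1.11. Such nearness is thus not particular to SC-like and mpMSC-like cells. In SC-like cells, as in dpMSC-like cells, *Sp7* and *Dlx3* were nearer to the chondrocyte-like level in every library. This is a description of levels in 3 libraries, with no test.

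**Figure D3:**
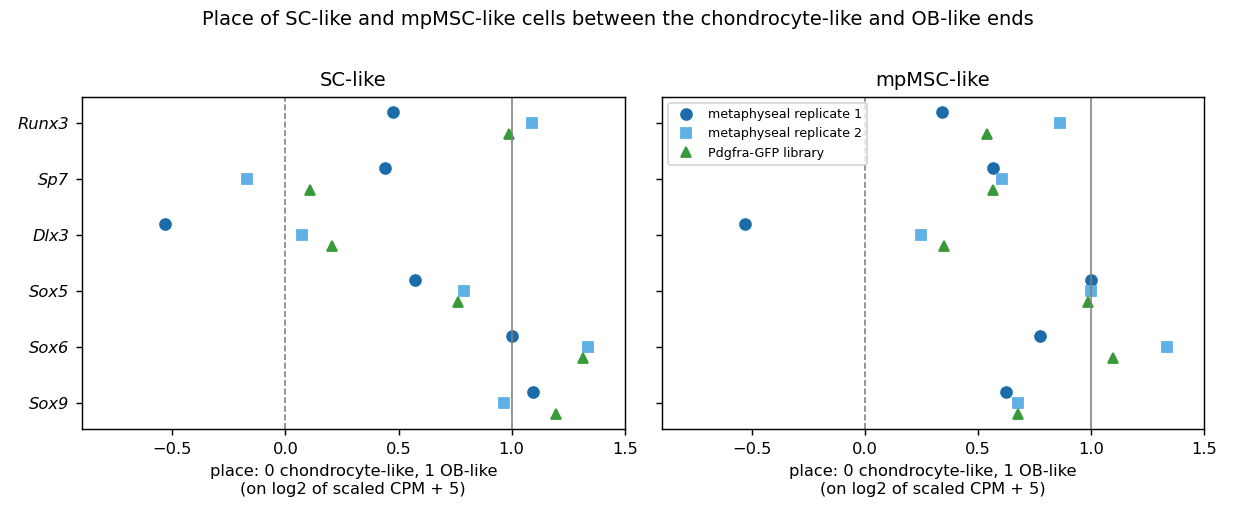
Place of SC-like and mpMSC-like cells between the chondrocyte-like level (0, dashed line) and the OB-like level (1, solid line) for 6 genes, on log2 of scaled CPM plus 5, with a point for each library. *Sox9* of mpMSC-like cells lies between the lines at 0.623 to 0.674, and *Dlx3* of both populations lies near 0 or below.

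Single cells were then asked whether they held *Runx2* and *Sox9* together. Cells were thinned to 2000 UMIs each, because depth differed between populations (median UMIs in the *Pdgfra-GFP* library of 8620.5 in SC-like, 5870 in mpMSC-like, 12271 in OB-like and 9095 in chondrocyte-like cells), and the 3 libraries were pooled. In mpMSC-like cells 27.2% of 946 cells had a UMI of *Runx2*, 11.8% of *Sox9* and 3.07% of both (exact 95% binomial interval 2.06 to 4.37%). In SC-like cells 23.7% of 207 cells had *Runx2*, 0.966% *Sox9* and 1 cell both (0.483%, interval 0.0122 to 2.66%). In chondrocyte-like cells 9.07% of 1345 cells had *Runx2*, 55.3% *Sox9* and 5.06% both (interval 3.95 to 6.37%), beside a product of the single shares of 5.02%. The product was 3.22% in mpMSC-like cells, inside the interval of the measured share as in chondrocyte-like cells. In the *Pdgfra-GFP* library 10.4% of 77 neutrophil-like cells (median depth 9973 UMIs) had *Runx2* and 1.30% *Sox9*, and 6.25% of 48 B-lineage-like cells had *Runx2*. The SC-like share with *Sox9* was below that of neutrophil-like cells, which should lack it, but above that of EC-like cells. The neutrophil-like and SC-like shares both rest on few cells. EC-like cells, which should also lack both genes, had *Runx2* in 0.523%, *Sox9* in 0.174% and both in 0 of 2293 cells (exact upper limit 0.161%), at a median depth of 4847 to 6120 UMIs. Without thinning the SC-like share with both was 3.37% (7 of 208 cells), and thinned without the *Pdgfra-GFP* library it was 0 of 28 cells (exact upper limit 12.3%). In the metaphyseal libraries alone *Runx2* was seen in 46.4% of 28 SC-like, 33.9% of 56 mpMSC-like, 24% of 100 OB-like and 19.0% of 58 chondrocyte-like cells, so that SC-like cells stood above mpMSC-like cells there, and both genes in 1.79% of mpMSC-like and 10.3% of chondrocyte-like cells. Thinning sets cells to equal totals, so these shares do not use the TMM scaling, by which *Runx2* of SC-like and OB-like cells did not differ beyond the spread. The differences between these shares, and the part of uncalled doublets in them, were not tested. Intervals cover counting error only, and most cells are from the *Pdgfra-GFP* library.

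**Figure D4:**
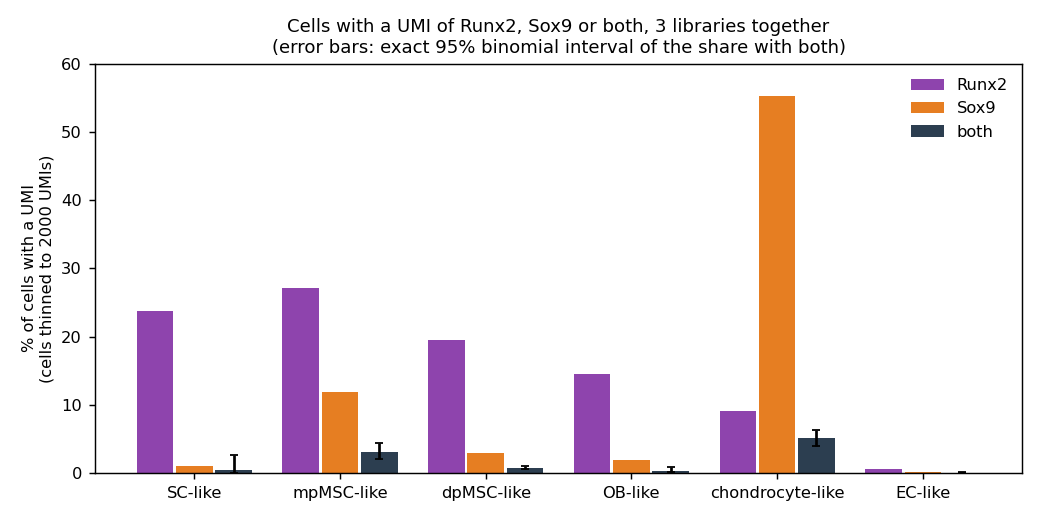
Percent of cells with a UMI of *Runx2*, of *Sox9* and of both after thinning to 2000 UMIs per cell, 3 libraries together, with exact 95% binomial intervals on the share with both. mpMSC-like cells (3.07%) and chondrocyte-like cells (5.06%) have the highest shares with both, and SC-like cells have 0.483%.

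Genes around the members were read as 4 lists. Of 12 osteoblast regulators 11 were tested, and 6 were lower and 2 higher in SC-like than in OB-like cells (median −0.93, against −0.01 over all genes). Among the called genes were *Mef2c* (log2 −2.49), *Snai2* (2.24) and *Zfp521* (−2.15), an antagonist of RUNX2. Against chondrocyte-like cells 4 were higher and 3 lower in SC-like cells, with *Zfp521* at −3.41, *Id1*, an inhibitor of basic helix-loop-helix factors, at −2.99 and *Dlx6*, the neighbour of *Dlx5*, at 2.42. In mpMSC-like against dpMSC-like cells 8 were higher and 2 lower (median 1.23), led by *Mef2c* (2.89) and *Twist2* (−2.42). Between SC-like and mpMSC-like cells *Zfp521* (−3.27) and *Dlx6* (−1.73) were lower and *Lef1*, a mediator of Wnt signals, was higher (1.65).

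Of 10 chondrocyte regulators 9 were tested. Against chondrocyte-like cells 7 were lower and 1 higher in SC-like cells (median −2.18) and 6 lower and 1 higher in mpMSC-like cells (median −2.24), and *Arid5b* was the exception in both (2.99 and 3.00). *Foxa3*, a factor of hypertrophic chondrocytes, fell by 7.01 on the log2 scale in SC-like cells, and *Sox8*, a relative of *Sox9*, by 4.59. *Sox8* moved with *Sox9* in mpMSC-like cells, with 1.98 against OB-like and 3.53 against dpMSC-like cells. Between SC-like and mpMSC-like cells 1 of the 9, *Pitx1*, was lower (−1.66). The 10 cartilage matrix genes bound by SOX9 were all lower in SC-like (median −9.58) and in mpMSC-like cells (median −10.03) than in chondrocyte-like cells. SC-like and mpMSC-like cells were called different in *Sox9* itself, a call lost in several alternatives. Between them the 10 lay between −1.70 and 1.28, with 1 (*Col11a1*, named after its value was seen) at an unadjusted p under 0.05 (edgeR). None was past the adjusted threshold by edgeR or DESeq2. Most of these genes were far below the chondrocyte-like level in both populations, and whether this left room for a difference was not tested.

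Of 10 bone genes downstream of RUNX2 and SP7, 5 were lower and 1 higher in SC-like than in OB-like cells (median −2.86). *Col1a1* (−7.41) and *Col1a2* (−6.58), genes of bone matrix, and *Ifitm5* (−6.43) were lower, while *Mmp13*, which encodes a collagenase and is a known target of RUNX2, was higher (7.33). *Mmp13* in SC-like cells was also above its level in mpMSC-like cells (2.36), where it was the only call of this list, and above that in chondrocyte-like cells (4.34). In mpMSC-like against dpMSC-like cells 4 of 10 were higher (median 1.83), among them *Alpl* (3.89), *Panx3* (3.15) and *Spp1* (2.98).

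**Figure D5:**
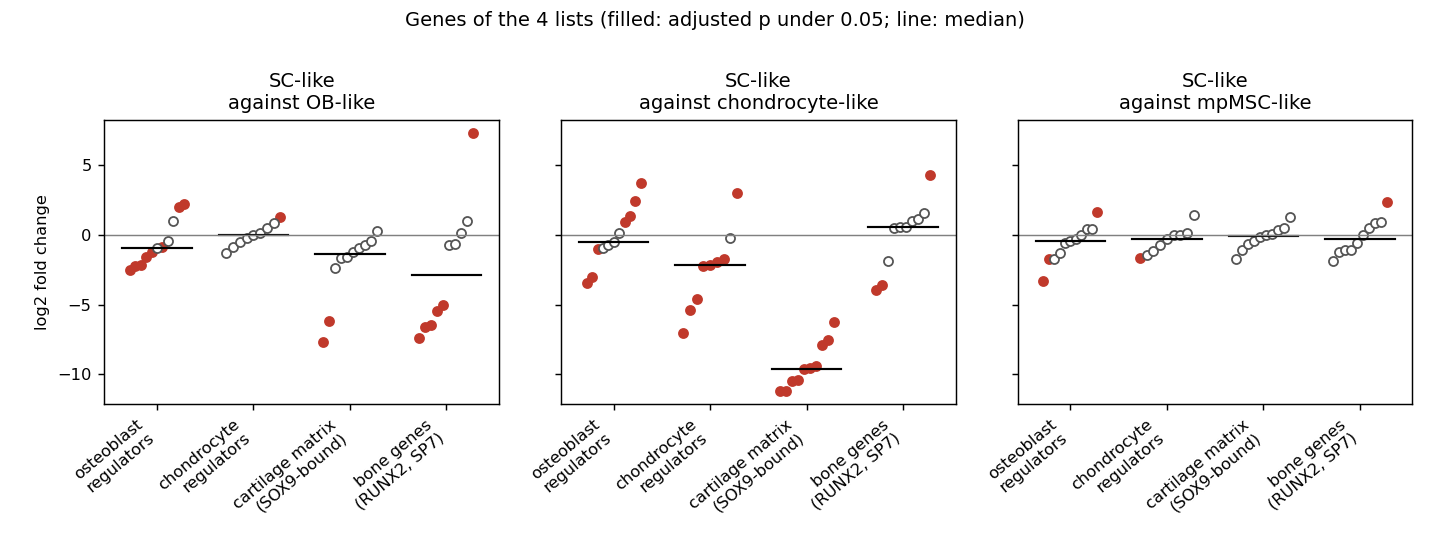
Log2 fold changes of the genes of 4 lists in SC-like cells against OB-like, chondrocyte-like and mpMSC-like cells, with filled points for an edgeR adjusted p under 0.05 and a line at the median of each list. The cartilage matrix genes lie around −9.58 against chondrocyte-like cells, and *Mmp13* is the highest point of the bone genes in all 3 panels.

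Outside the skeletal populations *Sox6* was high in erythroid-like cells, at 79.6 scaled CPM in metaphyseal replicate 1 and 190 in the *Pdgfra-GFP* library. SOX6 is known to act in red cell precursors. Superficial chondrocyte-like cells (gate *Prg4* and *Cilp*), 186 cells of the *Pdgfra-GFP* library, had *Sox9* at 494, *Sox5* at 192 and *Sox6* at 51.2 scaled CPM, but *Runx2* at 2.27 and *Runx3* at 3.41, where chondrocyte-like cells of the same library had 51.2 and 76.2. Fibroblast-like cells, 190 cells of that library, had *Sox9* at 48.8, *Sox5* at 29.8 and *Dlx3* at 17.4. These populations come from a single library and have no replicate check. Mural-like cells, around vessels, held *Sox5* at 28.2, 33.6 and 11.5 scaled CPM, from 11, 14 and 52 cells.

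For each member the genes with the most similar pattern were found by Pearson's r of log2(CPM + 10) over 35 sums, among 6032 genes. The sums share libraries and differ in depth, so r is a description. *Runx2* was most like *Irs1* (r = 0.887) and *Fign* (0.849), *Sp7* most like *Gxylt2* (0.881) and *9130024F11Rik* (0.875), and *Dlx3* most like *Insc* (0.879) and *Lipc* (0.878). *Dlx5* was most like *Fap* (0.888), *Runx1* most like *Epdr1* (0.797) and *Runx3* most like *Mpp6* (0.751). *Sox9* was most like *Thbs3* (0.878), *Sox5* most like the matrix gene *Mgp* (0.855) and *Sox6* most like the blood group gene *Rhd* (0.722).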

How the data were processed

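Droplet scRNA-seq libraries of metaphyseal cells (2) and of *Pdgfra-GFP*+ cells (1) were analysed. The authors trimmed reads with fastp 0.20, aligned them to mm10 with STAR 2.7.3a and counted them with STARsolo over Gencode M23 and a GFP transgene, and deposited raw UMI counts for all barcodes. The labels give the 10x chemistry as V2/V3.

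Barcodes with at least 1500 genes (metaphyseal) or 1000 genes (*Pdgfra-GFP*), with up to 15% of UMIs from mitochondrial and up to 30% from ribosomal genes were kept (median 6257, 6426 and 5330 UMIs per cell). Libraries shared 0 to 10 barcodes. Scrublet (scanpy 1.11.5) called 25, 12 and 163 doublets, which were kept. These were 1.05, 0.599 and 1.45% of cells, against 1.91, 1.60 and 8.99% expected from the cell numbers. Leaving out the called doublets thus removes only part of those expected. Cells over the gate of 1 population and no other were summed per library where at least 10 were present, giving 35 sums in 14 populations. Gate thresholds were set from cell numbers and check markers before the members were read by population. Sums were fitted together with edgeR 4.0.16 (R 4.3.3) by the quasi-likelihood test, with TMM factors, the library as a block and a filter on low counts that left 11976 genes. The 7 comparisons were adjusted by the Benjamini-Hochberg method over all genes, with a threshold of 0.05. The SE is the log2 fold change divided by the square root of F. Populations of 1 library come from the same cell suspension, which is the pairing behind the block. Their deviations from the population means correlated with r from 0.0593 to 0.341 in the metaphyseal replicates. In the *Pdgfra-GFP* library, which also differs in genotype, preparation and dissected region, r was 0.358 to 0.717.

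All 9 members are reported in each comparison. From each of 4 lists at most 4 genes past the threshold, those with the largest differences, are named, and for each member the genes most like it in pattern. One gene that this rule would name is not reported here. The members and lists were chosen with earlier results of these data known. On simulated data with 200 genes changed 4-fold, the fit found 199 for SC-like against mpMSC-like cells (11 false calls among 11093 genes). The changed genes were drawn from those above a minimum mean level, with a fixed dispersion of 0.05 and no library effect. The simulation therefore does not show how well changes in members with few UMIs are found. Alternatives covered DESeq2 1.42.0, its size factors, no filter, no replicate block, other gates, cell filters and thinning, and each library left out. The count files held 0 columns without a sample. Intervals of UMI counts and shares cover counting error only.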

Additional observations from a re-analysis of the deposited data

Results flagged for a closer look

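One difference between library types stood out. *Runx2* in mpMSC-like against dpMSC-like cells differed between the *Pdgfra-GFP* library and the metaphyseal libraries by 0.90 on the log2 scale (edgeR interaction term, adjusted p = 0.0102, 22 of 11976 genes past the threshold). The difference was 0.89 in the *Pdgfra-GFP* library and −0.01 in the metaphyseal libraries. In the former, *Runx2* was at 129 scaled CPM in mpMSC-like and 69.2 in dpMSC-like cells, and in the latter at 116 and 213 against 155 and 168. The *Pdgfra-GFP* library is a single library, so its spread was not measured and the p assumes that it varies like the other groups. It also differs in genotype (the *Pdgfra-H2B-GFP* allele), in preparation (sort in place of depletion) and in dissected region, and these cannot be told apart.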

How the results depend on the processing

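Over 918 comparisons of a result with an alternative, 834 kept their direction and side of the threshold, 40 lost the threshold, 14 gained it and 30 changed sign. Members called between SC-like and mpMSC-like cells (3) fell to 0 with no replicate block and to 1 with a looser gate, with sums of at least 20 cells and with cells thinned to 2000 UMIs, and rose to 4 with DESeq2's size factors, no filter on low counts and a stricter gate. Between SC-like and OB-like cells (4) they were 7 with library totals and 2 when thinned, where *Runx3* and *Dlx3* could not be tested, and between mpMSC-like and OB-like cells (6) they were 3 with no replicate block. With each library left out in turn the counts were 1 to 1 (*Sox9* or *Dlx5*, by the library left out) for SC-like against mpMSC-like, 3 to 4 against OB-like and 6 to 7 against chondrocyte-like cells. For mpMSC-like cells they were 4 to 5 against OB-like, 8 to 9 against chondrocyte-like and 4 to 6 against dpMSC-like cells, and for OB-like against chondrocyte-like cells 9 to 9. The share of SC-like cells with both *Runx2* and *Sox9* was 3.37% without thinning and 0 to 0.521% with a library left out. The cause of these changes was not tested.

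Signs changed as follows (log2). For SC-like against mpMSC-like cells, *Runx1* was −0.0157 when thinned, and *Runx2* was 0.0266 with DESeq2's Wald test, 0.0070 with library totals, 0.0084 with no replicate block, 0.114 with a looser gate and 0.0019 with only these populations fitted. For SC-like against OB-like cells, library totals gave *Runx2* 0.904, *Dlx5* 1.01 and *Sox9* 0.229, and *Dlx5* was also 0.0634 with DESeq2's Wald test, 0.0852 with its size factors, 0.119 with a looser gate, 0.157 with sums of at least 20 cells, 0.294 when thinned and 0.0306 with only these populations fitted. For mpMSC-like against OB-like cells, *Runx2* was 0.897 with library totals, 0.0328 with a stricter gate and 0.0825 when thinned, *Sox5* was −0.978 with a stricter gate, and *Sox6* was 0.630 with library totals and 0.0586 when thinned. With each library left out in turn, the SC-like difference ranged from −0.0732 to 0.559 for *Runx1* and −0.171 to 0.148 for *Runx2* against mpMSC-like cells, from −0.0378 to 0.774 for *Runx3* and −0.329 to 0.0762 for *Dlx5* against OB-like cells, and from −0.955 to 2.30 for *Dlx3* against chondrocyte-like cells. The mpMSC-like difference ranged from −0.286 to 0.109 for *Runx2* against OB-like cells, from −0.0530 to 3.23 for *Dlx3* against chondrocyte-like cells and from −0.0611 to 0.583 for *Runx2* against dpMSC-like cells. DESeq2's Wald test did not call *Sox9* in mpMSC-like cells against SC-like (adjusted p = 0.297), OB-like (0.107) or dpMSC-like cells (0.0782). Calls gained were *Sp7* (4 alternatives) and *Runx3* (stricter gate) in SC-like against mpMSC-like cells, *Runx3* (library totals) and *Sox6* (no filter) in SC-like against OB-like cells, and *Runx3* (6 alternatives) and *Runx2* (only these populations fitted) in mpMSC-like against dpMSC-like cells. Few cells limit the SC-like sums of the metaphyseal libraries.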
